A study of Mus musculus with 4 samples.

Results

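The 9 genes described here encode proteins that keratinocytes make late in their differentiation, and were chosen by symbol: the structural proteins involucrin (*Ivl*) and loricrin (*Lor*), the S100 fused-type proteins *Flg2*, *Hrnr*, *Rptn* and *Crnn*, the transglutaminases *Tgm1* and *Tgm3*, and the protease *Casp14*. All 9 are among the 24346 gene symbols of the files. They were measured by RNA sequencing of dorsal skin from wild type male C57BL/6 mice, 8 weeks old when the diet began, which received a high-fat, high-cholesterol NASH diet with bile salt, alone (Cont-IMQ group) or with added 7-ketocholesterol (7KC-IMQ group), over 3 weeks. Imiquimod (IMQ) cream, an agonist of Toll-like receptor signaling used to induce psoriasis-like dermatitis, was then applied to the back of all mice, and the RNA was taken after 1 day. Each group had 2 libraries. Since every mouse received IMQ, the comparison has no untreated or vehicle-treated skin. The sources used here do not say how many mice each library holds, so the p-values below measure only the spread between these libraries, which may be technical.

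In the outermost living layer of the epidermis, keratinocytes replace their membrane by a cornified envelope. Involucrin is laid down early beneath the membrane, and loricrin, added later, becomes its most abundant component. Transglutaminases join these proteins through glutamine and lysine side chains. The S100 fused-type proteins are stored in keratohyalin granules or attached to the envelope, and caspase-14 takes part in the breakdown of filaggrin to the small molecules that hold water in the skin. In psoriatic epidermis, cornification is disturbed and the order in which these proteins appear is altered. Filaggrin itself (*Flg*) was not analysed here.

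Values are FPKM, the fragments of a gene scaled by its exon length and by the mapped fragments of the library, and can therefore be compared between genes of different length. An estimated 14870000 to 16170000 mapped reads lie behind each library. The groups were compared on the log2(FPKM + 1) scale by limma over all 15896 genes with a mean of at least 0.1 FPKM, and a difference is always the 7KC-IMQ mean minus the Cont-IMQ mean. Keratinocyte markers were high in every library (*Krt5* at 2544 to 3062 FPKM and *Krt10* at 4597 to 8444 FPKM), as the dorsal skin label requires. Cont-IMQ replicates 1 and 2 stood far apart in genes of the hair follicle. The summed level of the 8 inner root sheath markers, all detected in each library, was 113 FPKM in Cont-IMQ replicate 1 and 1519 FPKM in replicate 2, against 437 and 387 FPKM in the 7KC-IMQ group. Where values follow as pairs, replicate 1 comes before replicate 2. The summed level of the 6 suprabasal keratinocyte markers was 23973 and 16024 FPKM against 17688 and 19371 FPKM, and that of the 6 basal markers 7994 and 7144 FPKM against 7976 and 8782 FPKM. The summed fibroblast markers ran from 2446 to 3406 FPKM over the 4 libraries, the adipocyte markers from 1576 to 2404 FPKM and the leukocyte markers from 137 to 173 FPKM, each with overlap between the groups. The sebaceous gland markers summed to 363 and 313 FPKM against 385 and 388 FPKM. The skeletal muscle markers summed to 7074 and 6985 FPKM against 5739 and 6873 FPKM. Without overlap between the groups, 2 of the 6 muscle markers were higher in the 7KC-IMQ group and 2 were lower. They included *Myh4* (125 and 62.9 against 427 and 329 FPKM) and *Myh1* (695 and 753 against 322 and 568 FPKM). Of the 6 adipocyte markers, 2 were higher in this way and 0 lower, including *Lep* (1.64 and 1.16 against 9.75 and 3.70 FPKM). Of the 6 leukocyte markers, 1 was higher and 3 were lower in this way, although their sums overlapped. Of the 6 basal markers, 2 were higher and 2 lower. They included *Krt14* (4409 and 4132 against 4807 and 5700 FPKM) and *Krt15* (216 and 172 against 123 and 96.9 FPKM). Over all genes tested, 23.9% were higher and 22.9% lower in this way. The part of these other cell types in the results was not tested.

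The 9 genes spanned a wide range of levels. *Lor* was the most abundant with a mean of 1443 FPKM over the 4 libraries, which placed it 78th among all genes, followed by *Ivl* (276 FPKM), *Casp14* (182 FPKM), *Tgm1* (116 FPKM), *Rptn* (93.8 FPKM), *Hrnr* (72.4 FPKM), *Flg2* (67.5 FPKM), *Tgm3* (14.9 FPKM) and *Crnn* (7.68 FPKM). In this order, the ranges over the libraries did not overlap between *Lor* and *Ivl*, nor between *Flg2* and *Tgm3*. All other neighbors overlapped in range.

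**Figure D1:**
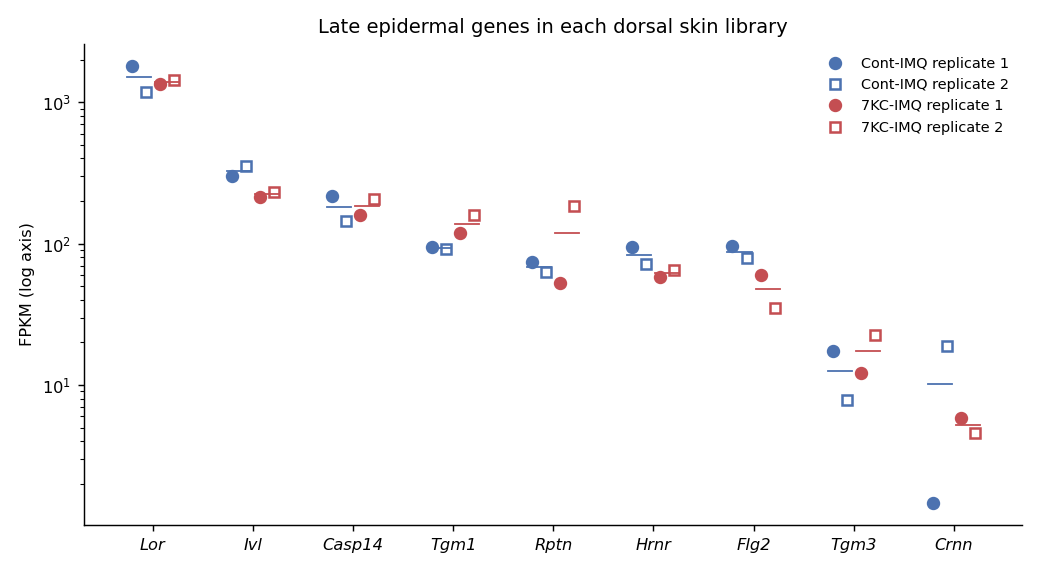
FPKM (log axis) of the 9 late epidermal genes in each of the 4 libraries, ordered by mean level, with Cont-IMQ in blue, 7KC-IMQ in red, replicate 1 as filled circles, replicate 2 as open squares and short lines for the group means. The red symbols of *Ivl*, *Flg2* and *Hrnr* lie below the blue ones, those of *Tgm1* lie above, and *Crnn* ranges from 1.46 to 18.8 FPKM within the Cont-IMQ group.

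No gene of the 9 passed the adjusted threshold of 0.05 in limma, which 1 of the 15896 genes (0.00629%) passed. At an unadjusted p-value under 0.05, 2 of the 9 were lower in the 7KC-IMQ group (*Ivl* and *Flg2*), where 5.47% of all genes tested were lower, and 1 was higher (*Tgm1*), where 7.5% were higher. Without overlap between the groups, 3 of the 9 were lower (*Ivl*, *Flg2* and *Hrnr*) and 1 was higher (*Tgm1*). Over all genes tested, 22.9% were lower and 23.9% higher in this way, 46.8% in all. The median difference of the 9 genes was -0.077, and that of all genes tested was -0.0056. The count of separated genes was near this background, and the 4 genes differed in direction.

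**Figure D2:**
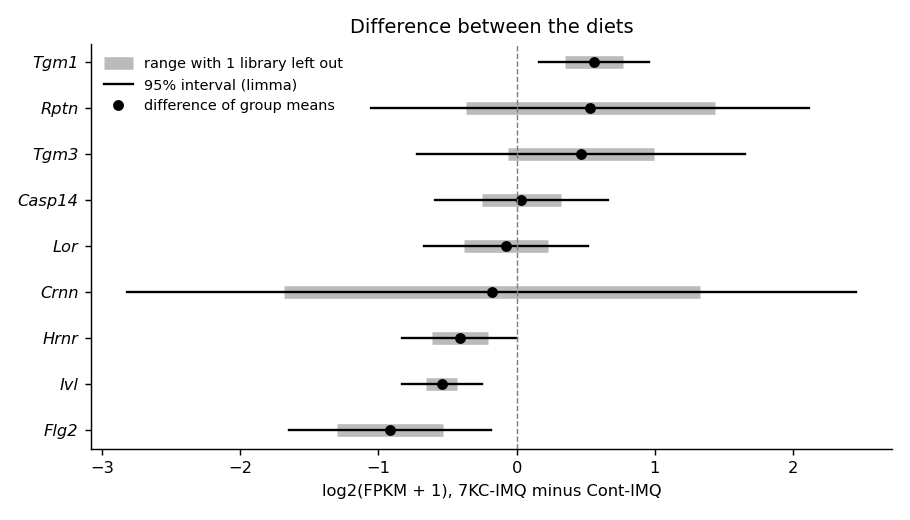
Difference between the groups for each of the 9 genes on the log2(FPKM + 1) scale, 7KC-IMQ minus Cont-IMQ, with points for the difference of means, thin lines for the 95% interval from limma and grey bars for the range when each library is left out in turn. The grey bars of *Flg2*, *Ivl* and *Hrnr* stay below 0 and that of *Tgm1* stays above 0, and the bars of the other 5 genes cross 0. Where the groups do not overlap, as in *Flg2*, *Ivl*, *Hrnr* and *Tgm1*, leaving out a library cannot turn the sign.

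*Ivl* encodes involucrin, a glutamine-rich scaffold of the envelope that transglutaminases use as a substrate. It had 302 and 353 FPKM in Cont-IMQ skin, against 215 and 233 FPKM in 7KC-IMQ skin. Both 7KC-IMQ libraries lay below both Cont-IMQ libraries, and the distance between the groups exceeded the spread within each. The group means were 327 ± 35.5 FPKM and 224 ± 13.3 FPKM (SD, n = 2), a ratio of 0.684. The difference was -0.54 (standard error 0.11, 95% interval -0.83 to -0.25, adjusted p = 0.352 in limma). Leaving out single libraries gave differences between -0.65 and -0.43. In bulk skin, fewer cells that express a gene and less RNA per cell cannot be told apart.

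*Lor* encodes loricrin, the glycine-rich protein that makes up most of the mature envelope. It had 1808 and 1187 FPKM in Cont-IMQ skin, against 1343 and 1436 FPKM in 7KC-IMQ skin. The Cont-IMQ libraries enclosed the 7KC-IMQ libraries, and the spread within the Cont-IMQ group was larger than the difference between the groups. The difference was -0.077 (standard error 0.23, 95% interval -0.67 to 0.52, adjusted p = 0.913 in limma), and it was 0.23 without Cont-IMQ replicate 1.

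The ratio of *Ivl* to *Lor* within a library does not depend on scaling between libraries. It was 0.167 and 0.297 in the Cont-IMQ group and 0.160 and 0.162 in the 7KC-IMQ group. The groups did not overlap, but Cont-IMQ replicate 1 lay close to both 7KC-IMQ libraries. The difference in log2 ratio was -0.47 (two-sided exact permutation test, p = 0.333, the smallest p-value that 2 against 2 libraries can give), and it was -0.054 without Cont-IMQ replicate 2.

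Both genes belong to the epidermal differentiation complex, a dense cluster of envelope genes. In the mm10 assembly, also called GRCm38, *Lor* lies on chromosome 3 from 92080271 to 92083142 and *Ivl* from 92570902 to 92573735, both on the minus strand. *Crnn* (93144787 to 93149819), *Flg2* (93197278 to 93221391), *Hrnr* (93319749 to 93333570) and *Rptn* (93393699 to 93399442) follow on the plus strand within 255 kb. Promoter windows of the 9 genes, from 250 bases before to 50 bases after the transcription start in RefSeq (GRCm38.p6), were searched on both strands for the letters of 4 motifs. TGANTCA, the AP-1 motif, occurred in 5 genes (*Lor*, *Ivl*, *Crnn*, *Flg2* and *Rptn*) and in 7.81% of all 32851 promoter windows. TATAAA occurred in 6 genes (*Lor*, *Ivl*, *Crnn*, *Hrnr*, *Rptn* and *Tgm3*), against 13.6% of all windows. TTGCNNAA, a C/EBP motif, occurred in 4 genes (*Flg2*, *Hrnr*, *Tgm1* and *Tgm3*), against 10.8%, and AACNNGTT, a Grainyhead-like motif, in *Rptn*, against 4.20%. No match overlapped a match of another motif. The AP-1 match began 116 bases upstream of the start in *Ivl*, 48 in *Lor*, 96 in *Crnn*, 69 in *Flg2* and 96 in *Rptn*, and TATAAA lay between 27 and 31 bases upstream where it was found. AP-1 is a family of factors long known to act on the involucrin promoter. A match is a description of letters only.

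The 5 windows with an AP-1 match are shown to set the matched letters side by side, 5′ to 3′ on the strand of the gene, with matches to TGANTCA and TATAAA in capitals. They are *Ivl* at chr3:92573686-92573985 and *Lor* at chr3:92083093-92083392 on the minus strand, and *Crnn* at chr3:93144539-93144838, *Flg2* at chr3:93197023-93197322 and *Rptn* at chr3:93393449-93393748 on the plus strand.
Ivl: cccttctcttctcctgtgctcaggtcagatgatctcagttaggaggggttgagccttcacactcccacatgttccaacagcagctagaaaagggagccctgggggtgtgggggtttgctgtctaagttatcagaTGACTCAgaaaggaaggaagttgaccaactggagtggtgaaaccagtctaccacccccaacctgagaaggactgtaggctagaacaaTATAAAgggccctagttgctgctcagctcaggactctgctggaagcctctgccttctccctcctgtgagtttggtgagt
Lor: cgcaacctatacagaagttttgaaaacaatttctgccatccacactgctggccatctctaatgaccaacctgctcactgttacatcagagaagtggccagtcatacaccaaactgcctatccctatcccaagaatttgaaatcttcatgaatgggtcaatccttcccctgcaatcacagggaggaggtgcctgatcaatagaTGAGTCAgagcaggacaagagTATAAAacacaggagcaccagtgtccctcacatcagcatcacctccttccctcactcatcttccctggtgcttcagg
Crnn: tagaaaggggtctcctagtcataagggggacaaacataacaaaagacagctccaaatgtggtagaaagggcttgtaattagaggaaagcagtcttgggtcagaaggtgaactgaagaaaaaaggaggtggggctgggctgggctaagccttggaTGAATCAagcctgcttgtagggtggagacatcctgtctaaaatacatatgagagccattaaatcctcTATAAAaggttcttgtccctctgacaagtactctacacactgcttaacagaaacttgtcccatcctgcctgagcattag
Flg2: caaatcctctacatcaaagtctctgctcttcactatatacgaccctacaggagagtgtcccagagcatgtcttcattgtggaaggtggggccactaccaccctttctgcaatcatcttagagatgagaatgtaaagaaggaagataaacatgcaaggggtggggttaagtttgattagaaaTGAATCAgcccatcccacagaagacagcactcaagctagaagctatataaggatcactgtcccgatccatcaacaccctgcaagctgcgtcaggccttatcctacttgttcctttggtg
Rptn: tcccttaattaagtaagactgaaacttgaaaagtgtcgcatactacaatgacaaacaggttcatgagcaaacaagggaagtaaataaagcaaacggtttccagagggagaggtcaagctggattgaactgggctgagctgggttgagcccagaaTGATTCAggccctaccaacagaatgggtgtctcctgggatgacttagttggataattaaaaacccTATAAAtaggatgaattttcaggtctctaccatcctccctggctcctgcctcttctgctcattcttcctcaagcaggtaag

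*Flg2* encodes filaggrin-2, a histidine-rich and serine-rich relative of filaggrin. It had 96.3 and 79.0 FPKM in Cont-IMQ skin, against 59.9 and 34.9 FPKM in 7KC-IMQ skin. The groups did not overlap, and 7KC-IMQ replicate 2 was the lowest library. The means were 87.6 ± 12.2 FPKM and 47.4 ± 17.7 FPKM (SD, n = 2), a ratio of 0.541. The difference of -0.92 (standard error 0.28, 95% interval -1.65 to -0.19, adjusted p = 0.360 in limma) was the largest in size among the 9 genes. It ranged from -1.30 without 7KC-IMQ replicate 1 to -0.53 without 7KC-IMQ replicate 2.

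*Hrnr* encodes hornerin, a repeat protein of the granular layer that is also cross-linked into the envelope. It had 94.8 and 71.4 FPKM in Cont-IMQ skin, against 58.1 and 65.3 FPKM in 7KC-IMQ skin. The groups did not overlap, but Cont-IMQ replicate 2 lay near the 7KC-IMQ libraries. The difference was -0.41 (standard error 0.16, 95% interval -0.83 to 0.0050, adjusted p = 0.386 in limma), and it was -0.21 without Cont-IMQ replicate 1.

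Hornerin and filaggrin-2 are built of tandem repeats, which bears on how reads of 75 bases are placed. Of all windows of 75 bases in the longest protein-coding transcript (GENCODE release M21), 68.2% occurred more than once within *Hrnr* and 21.7% within *Flg2*, and 0% within the other 7 genes. None of the windows of either gene occurred in a transcript of another gene. The most repeated window is printed for each, with 9 copies in *Flg2* and 15 copies in *Hrnr*. A read from such a window fits several places in the same gene, and how the authors' software was set to count it is not given in the sources used here.
Flg2: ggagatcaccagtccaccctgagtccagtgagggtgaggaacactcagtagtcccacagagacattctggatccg
Hrnr: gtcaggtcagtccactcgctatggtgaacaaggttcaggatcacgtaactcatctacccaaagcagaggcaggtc

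The ratio of *Flg2* to *Hrnr* within a library, compared after their values were seen, was 1.02 and 1.11 in the Cont-IMQ group and 1.03 and 0.534 in the 7KC-IMQ group. The 2 genes were nearly equal in 3 libraries, and *Flg2* was the lower of them in 7KC-IMQ replicate 2.

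*Rptn* encodes repetin, a calcium-binding envelope protein found in epidermis, tongue and hair follicle. It had 73.6 and 63.1 FPKM in Cont-IMQ skin, against 52.6 and 186 FPKM in 7KC-IMQ skin. The 7KC-IMQ libraries enclosed the Cont-IMQ libraries, and replicate 2 alone carried the higher mean. The difference was 0.53 (standard error 0.60, 95% interval -1.05 to 2.12, adjusted p = 0.741 in limma), and it was -0.37 without 7KC-IMQ replicate 2.

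*Crnn* encodes cornulin, known best from the squamous epithelium of the esophagus and present in the upper epidermis. It had 1.46 FPKM in Cont-IMQ replicate 1 and 18.8 FPKM in replicate 2, against 5.81 and 4.59 FPKM in the 7KC-IMQ group. An estimated 37 and 467 reads lie behind the former values and 156 and 114 behind the latter. *Crnn* spanned 12.9-fold between its highest and lowest library, against 1.49-fold to 3.54-fold for the other 8 genes, and both extremes were Cont-IMQ libraries. The difference was -0.18 (standard error 1.00, 95% interval -2.82 to 2.46, adjusted p = 0.956 in limma). It was 1.33 without Cont-IMQ replicate 2 and -1.69 without Cont-IMQ replicate 1.

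Over the 4 libraries, *Crnn* ran closest to genes of the hair follicle. Distance to *Crnn* was the root mean square distance of centered log2(FPKM + 1) values over the 4 libraries, among 7091 other genes with a mean of at least 10 FPKM. The 3 nearest were the hair follicle keratins *Krt35* (0.17), *Krt28* (0.20) and *Krt73* (0.21), where the spread of *Crnn* itself was 1.07. *Krt28* and *Krt73* are among the inner root sheath markers and *Krt35* among the hair shaft markers. The ratio of *Crnn* to *Tchh*, which encodes trichohyalin of the inner root sheath, was 0.167 and 0.139 in the Cont-IMQ libraries and 0.184 and 0.157 in the 7KC-IMQ libraries. That ratio spanned 1.32-fold where *Tchh* itself had 8.77 and 136 FPKM against 31.6 and 29.3 FPKM. The 7 hair shaft markers stood at a summed 12.4 and 126 FPKM against 43.4 and 37.5 FPKM, with *Krt86* listed at 0 in Cont-IMQ replicate 1. *Crnn* was singled out for this comparison after its values were seen, and the part of hair follicles in its level was not tested.

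**Figure D3:**
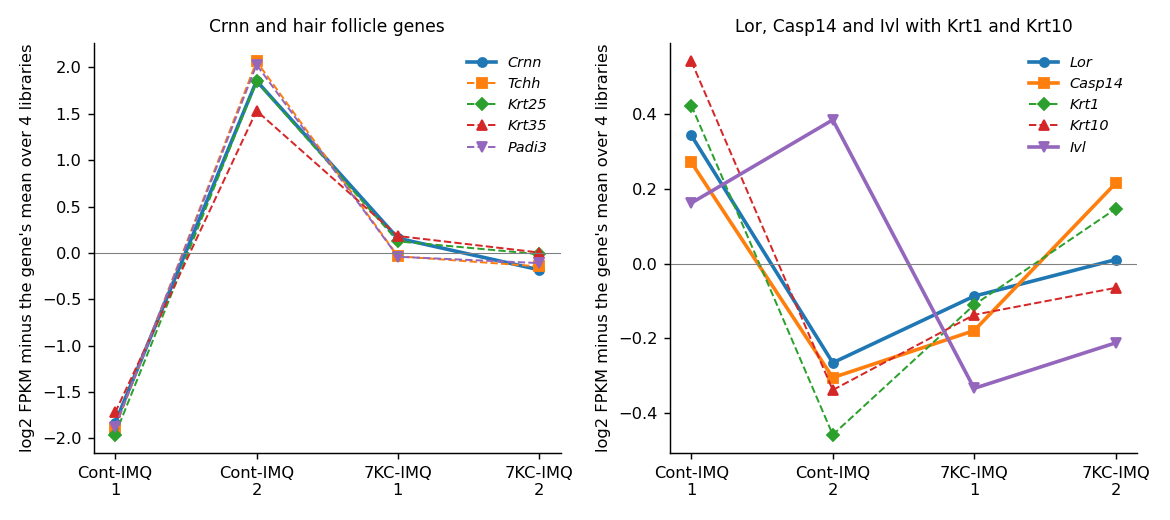
log2 FPKM of each gene minus its own mean over the 4 libraries, for *Crnn* with 4 genes of the hair follicle (left) and for *Lor*, *Casp14* and *Ivl* with *Krt1* and *Krt10* (right), where solid lines mark the late epidermal genes, dashed lines the others, and lines only join the values of 1 gene. *Crnn* is lowest in Cont-IMQ replicate 1 and highest in Cont-IMQ replicate 2 like *Tchh*, *Krt25*, *Krt35* and *Padi3*, whereas *Lor* and *Casp14* are highest in Cont-IMQ replicate 1 and lowest in Cont-IMQ replicate 2 like *Krt1* and *Krt10*.

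Of the S100 fused-type family (7 genes listed, 6 tested), 1 gene was lower in limma at an unadjusted p-value under 0.05 (*Flg2*), as 5.47% of all genes tested were, and 0 passed after adjustment. Groups were separated in 2 of the 6, *Flg2* and *Hrnr*, both lower in the 7KC-IMQ group, against 46.8% of all genes tested in either direction and 22.9% lower. The median difference of the 6 genes was -0.31, against -0.0056 for all genes tested. In *Crnn*, *Tchh* and *Tchhl1*, the Cont-IMQ libraries held both the highest and the lowest value (8.77 and 136 FPKM in *Tchh*). The median is therefore not read as a shift of the family.

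*Tgm1* (chromosome 14, 55700009 to 55713926) encodes the membrane-bound transglutaminase of keratinocytes, whose loss causes lamellar ichthyosis in humans. It had 94.0 and 91.5 FPKM in Cont-IMQ skin, against 119 and 159 FPKM in 7KC-IMQ skin. The Cont-IMQ libraries were nearly equal, and the 7KC-IMQ libraries were both higher. The means were 92.8 ± 1.75 FPKM and 139 ± 28.1 FPKM (SD, n = 2), a ratio of 1.495. The difference was 0.56 (standard error 0.15, 95% interval 0.16 to 0.96, adjusted p = 0.356 in limma). It ranged from 0.35 without 7KC-IMQ replicate 2 to 0.77 without 7KC-IMQ replicate 1. Of its 75-base windows, 3.92% also occur in *Gm49067*, so a small share of its reads cannot be assigned with certainty.

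*Tgm3* (chromosome 2, 130012349 to 130050399) encodes the epidermal transglutaminase, a zymogen cleaved by cathepsins that also acts in the hair shaft. It had 17.3 and 7.79 FPKM in Cont-IMQ skin, against 12.2 and 22.4 FPKM in 7KC-IMQ skin. The groups overlapped. The difference was 0.47 (standard error 0.45, 95% interval -0.72 to 1.65, adjusted p = 0.696 in limma), and it was -0.062 without Cont-IMQ replicate 2. *Tgm3* was low in Cont-IMQ replicate 2, the library where the hair follicle markers were highest.

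*Tgm1* was the more abundant of the pair in every library. The ratio of *Tgm1* to *Tgm3* was 5.42 and 11.7 in the Cont-IMQ group and 9.76 and 7.08 in the 7KC-IMQ group, and the groups overlapped (log2 difference 0.059, two-sided exact permutation test, p = 1). Of the transglutaminase family (9 genes listed, 7 tested), only *Tgm1* had an unadjusted p-value under 0.05 in limma. It was higher, as 7.5% of all genes tested were at this threshold. *Tgm1* was also the only gene of the 7 separated between the groups, against 46.8% of all genes tested. *Tgm2*, the widely expressed tissue transglutaminase, had 42.9 and 40.03 FPKM against 38.0 and 40.4 FPKM. *Tgm5*, which acts in the upper epidermis, had 26.8 and 19.6 FPKM against 24.8 and 31.5 FPKM. *F13a1*, the factor XIII subunit found in dermal macrophages, had 17.7 and 17.3 FPKM against 17.9 and 16.3 FPKM.

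The enzyme and its substrate involucrin stood in opposite directions. The ratio of *Tgm1* to *Ivl*, a pair chosen after the values were seen, was 0.311 and 0.260 in the Cont-IMQ group. In the 7KC-IMQ group it was 0.554 and 0.680, a log2 difference of 1.11. Since *Tgm1* was higher and *Ivl* lower without overlap, the ratio had to separate the groups. It restates the differences of the single genes and adds no further result.

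*Casp14* (chromosome 10, 78711991 to 78718294) encodes caspase-14, a caspase of cornifying epithelia that does not take part in apoptosis. It had 216 and 145 FPKM in Cont-IMQ skin, against 158 and 208 FPKM in 7KC-IMQ skin. The Cont-IMQ libraries enclosed the 7KC-IMQ libraries, and the means were 181 ± 50.1 FPKM and 183 ± 35.0 FPKM (SD, n = 2). The difference was 0.035 (standard error 0.24, 95% interval -0.59 to 0.66, adjusted p = 0.966 in limma), and its sign turned to -0.064 under quantile normalization. It was -0.25 without Cont-IMQ replicate 2 and -0.16 without 7KC-IMQ replicate 2. The ratio of *Casp14* to *Flg2* was 2.24 and 1.84 in the Cont-IMQ group and 2.64 and 5.96 in the 7KC-IMQ group, without overlap. Its log2 difference was 0.97 (two-sided exact permutation test, p = 0.333), and it was 0.38 without 7KC-IMQ replicate 2.

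*Lor* was compared with the suprabasal keratins, as were *Casp14* and *Ivl*. *Krt10*, the keratin of the spinous layer, had 8444 and 4597 FPKM in Cont-IMQ skin, against 5283 and 5553 FPKM in 7KC-IMQ skin, and its partner *Krt1* had 5867 and 3191 FPKM against 4057 and 4845 FPKM. The ratio of *Lor* to *Krt10* was 0.214 and 0.258 against 0.254 and 0.259, and spanned 1.21-fold over the libraries, where *Lor* itself spanned 1.52-fold. The ratio of *Casp14* to *Krt10* was 0.0256 and 0.0316 against 0.0300 and 0.0374, a span of 1.46-fold that was about as wide as the 1.49-fold span of *Casp14* itself. The ratio of *Ivl* to *Krt10* was 0.0358 and 0.0767 against 0.0406 and 0.0420, a span of 2.14-fold that was wider than the 1.64-fold span of *Ivl* itself. These ratios were chosen after the values were seen. When each library was centered on *Krt5*, *Krt14*, *Krt1* and *Krt10*, the difference was -0.57 for *Ivl*, -0.94 for *Flg2*, -0.44 for *Hrnr* and 0.53 for *Tgm1*. Such centering shifts the difference of every gene by the same amount. These values therefore restate the earlier ones and do not test the part of keratinocyte content.

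The genes nearest in pattern to the extremes of the 9 were taken by the same distance. For *Tgm1*, with the highest difference, they were *Serpinb1a* (distance 0.019, with 15.2 and 15.0 FPKM against 19.1 and 26.7 FPKM), *Cd24a* (0.026) and *Fchsd1* (0.030), where the spread of *Tgm1* was 0.32. For *Flg2*, with the lowest difference, they were *Ccl27a* (distance 0.11, with 62.1 and 58.8 FPKM against 36.9 and 24.6 FPKM), *Serpina12* (0.12) and *Krt77* (0.12, with 1475 and 1488 FPKM against 1111 and 669 FPKM), where the spread of *Flg2* was 0.54. *Ccl27a* encodes a chemokine made by keratinocytes, and *Krt77* a keratin of the suprabasal epidermis and sweat duct. Over 4 libraries, such likeness is a description.

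On chromosome 3, 41 other genes were tested between *Lor* and *Rptn*, a span of 1319 kb. Of these, 20 were higher in the 7KC-IMQ group without overlap and 1 was lower (*Lce1m*), where 23.9% of all genes tested were higher and 22.9% lower in this way. In the remaining 20 the groups overlapped, as they did in *Lor*, *Crnn* and *Rptn*. The median difference of the 41 genes was 0.24. The higher ones were *Sprr1a*, *Sprr1b* and genes of the *Sprr2* and *Lce3* families, with differences up to 2.22 in *Sprr2b*. These families encode small envelope precursors, though the pseudogene *Sprr2j-ps* was among the higher ones. Sequence shared within these families was not examined here, and values are uncertain where reads could be split between genes. *Ivl* lies between *Sprr4* (0.025) and *Smcp* (0.010), and *Flg2* and *Hrnr* lie beyond *Lce1m* (-0.68) and *Crnn*. *Smcp* had a mean of only 0.192 FPKM, a level at which this scale can show little difference.

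**Figure D4:**
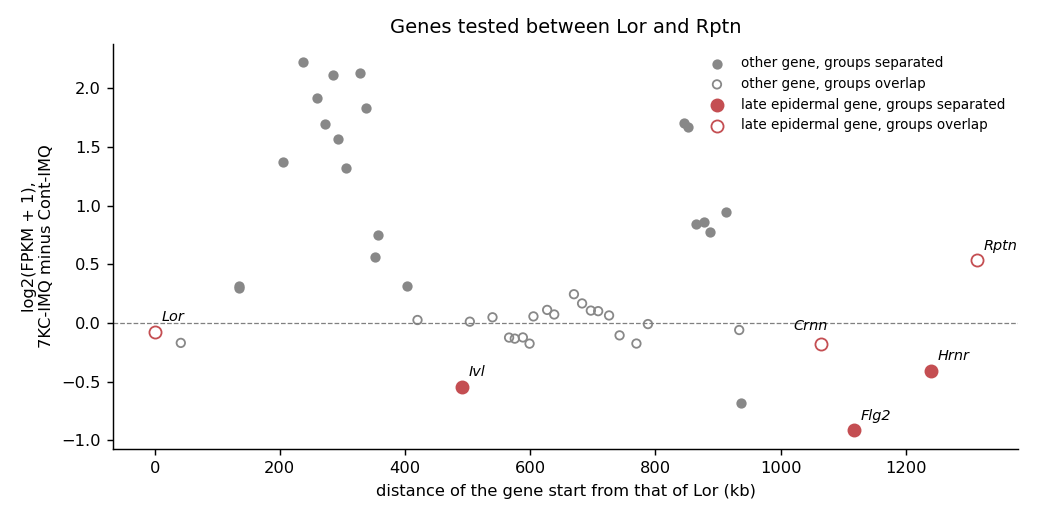
Difference between the groups on the log2(FPKM + 1) scale for the 47 genes tested between *Lor* and *Rptn*, against the distance of each gene's start from that of *Lor* in kb, with red for the 6 late epidermal genes, grey for the other 41, and filled symbols where the groups did not overlap. The filled grey points lie above 0 except *Lce1m* at -0.68, while the filled red points, *Ivl*, *Hrnr* and *Flg2*, lie below 0.

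The partners of these proteins were described by lists compiled by hand, and no gene of the lists named here passed the adjusted threshold in limma. Their counts stand against 7.5% of all genes tested that were higher and 5.47% that were lower at an unadjusted p-value under 0.05, and 23.9% and 22.9% that were higher and lower without overlap. Of 11 envelope scaffold and partner genes tested, 1 had an unadjusted p-value under 0.05 and was higher in the 7KC-IMQ group. This was *Cnfn*, which encodes cornifelin, with 1068 and 900 FPKM against 1313 and 1650 FPKM (difference 0.59, adjusted p = 0.356 in limma). *Sprr1b*, with the largest difference of the list (0.75), had 358 and 325 FPKM against 414 and 789 FPKM. Groups were separated in 3 higher and 2 lower of the 11 genes, near the 46.8% of all genes tested that were separated. The large linkers *Evpl* (envoplakin, 62.6 and 53.7 against 54.0 and 57.1 FPKM) and *Ppl* (periplakin, 99.5 and 85.3 against 79.9 and 77.4 FPKM) had differences of -0.062 and -0.23.

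A list of 12 genes for the processing of these proteins held proteases, deiminases and *Cst6*, a cystatin that inhibits cysteine proteases. Of the 12, 1 had an unadjusted p-value under 0.05 and was higher. This was *Furin*, a proprotein convertase, with 44.8 and 45.8 FPKM against 51.7 and 58.0 FPKM (difference 0.27, adjusted p = 0.365 in limma). Groups were separated in 5 higher genes, among them the inhibitor *Cst6*, and 1 lower gene of the 12, again near 46.8%. *Asprv1*, the retroviral-like aspartic protease that cuts filaggrin linkers, was the most abundant at 2173 and 1588 FPKM against 1592 and 1774 FPKM (difference -0.14). *Padi1*, a deiminase that converts arginine to citrulline, had the largest difference in size (-0.60), with 1.22 and 2.93 FPKM against 0.682 and 1.26 FPKM and overlap between the groups.

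Of 10 suprabasal differentiation genes, 1 had an unadjusted p-value under 0.05 and was lower, *Dsg1a*, which encodes the desmosomal cadherin desmoglein-1 alpha, with 174 and 140 FPKM against 111 and 112 FPKM (difference -0.48, adjusted p = 0.356 in limma). *Krtdap*, the most abundant of the list, had 6915 and 5822 FPKM against 5912 and 6400 FPKM. *Dsg1b*, a relative of *Dsg1a* on the same list, had 38.4 and 30.1 FPKM against 32.1 and 49.2 FPKM (difference 0.22), with overlap. Groups were separated in 0 higher and 1 lower of the 10 genes, fewer than the 46.8% of all genes tested. The median difference of the list was -0.030. Of 17 regulators of late differentiation, 1 had an unadjusted p-value under 0.05 and was lower, the nuclear receptor *Rora*, with 29.7 and 25.2 FPKM against 20.2 and 20.4 FPKM (difference -0.41, adjusted p = 0.356 in limma). *Klf4*, a barrier transcription factor and the most abundant of them, had 320 and 367 FPKM against 248 and 364 FPKM. *Cebpb* had the largest difference (0.53), with 112 and 117 FPKM against 134 and 204 FPKM and no overlap. Groups were separated in 2 higher and 5 lower of the 17 regulators, also near 46.8%, and the median difference was -0.12.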

How the data were processed

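Dorsal skin RNA was sequenced in 4 libraries (stranded mRNA kit, 75-base single-end reads), grouped by the sample labels. Per the submitters' processing notes, TopHat2 2.1.1, Bowtie2 2.2.8, SAMtools 0.1.18 and Cuffdiff 2.2.1 were used with mm10. The authors deposited FPKM, 1 value per gene symbol and library. The gene annotation is not given in the sources used here, and read counts were not used.

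The values were used as log2(FPKM + 1), with no rescaling. Genes reaching 0.1 FPKM on average over the libraries were compared by limma 3.58.1 (R 4.3.3, variance trend) with Benjamini-Hochberg adjustment over all 15896 genes. The test was first run on simulated data. Within-library ratios were compared by exact permutation over the libraries. Because of the pseudocount, fold changes of weakly expressed genes are understated.

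Depth was estimated as the number of reads that brought most low values of single-transcript genes within 0.1 of a whole read, using transcript length minus 199 bases, which 74.3% to 77.7% of 426 to 460 genes did, against 20% by chance. Estimated reads cover counting error only. Positions and 75-base windows came from GENCODE M21, promoters from RefSeq (10 windows for the 9 genes). The start of an annotated transcript was found in all 10.

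The 9 genes and all lists were chosen with earlier results of these data known. The rule for named genes covered the 9 genes, the most abundant and the most different gene of each list, and the 3 genes nearest in pattern to the members with the highest and lowest difference. Other genes, among them *Evpl*, *Ppl*, *Dsg1b* and single cell type markers, fell outside this rule and were named with their values known. The reasons included a small count, the place on chromosome 3 and likeness to *Crnn*. Alternatives were another pseudocount, other filters, other scalings, a fit lacking the variance trend, a block by replicate number, and fits leaving out each library. Neither the labels nor the methods tie equal replicate numbers to a litter, batch or day.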

Additional observations from a re-analysis of the deposited data

How the results depend on the processing

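No alternative brought any of the 9 genes past an adjusted p of 0.05 in limma, and the smallest value was 0.201, for *Crnn* without Cont-IMQ replicate 1. *Ivl*, *Flg2*, *Hrnr* and *Tgm1* kept their direction under each alternative, but much of this was fixed in advance. Where the groups do not overlap, leaving out a library cannot turn the sign. The filters, the variance trend and the replicate block leave a gene's difference unchanged. With single libraries left out, the difference ranged from -0.38 to 0.23 for *Lor*, from -0.37 to 1.43 for *Rptn*, from -1.69 to 1.33 for *Crnn*, from -0.062 to 1.00 for *Tgm3* and from -0.25 to 0.32 for *Casp14*, which was also -0.064 under quantile normalization. The median of the 9 ranged from -0.25 to 0.23, the genes separated from 1 to 4 higher and from 3 to 5 lower, and the log2 ratio difference of *Tgm1* to *Tgm3* from -0.50 to 0.62. A group of 1 library is separated from the other more easily, and the matching share of all genes is not given here. The counts of separated genes with a library left out therefore cannot be read against the main counts. Over all genes, 1 passed, against 2 with a pseudocount of 0.1, 80 with centering on 4 keratins and 1 to 9 with a library left out. At an unadjusted p under 0.05, 1192 genes were higher and 869 lower, against 160 and 141 with centering on the keratins, and 333 to 1190 higher and 282 to 1141 lower with a library left out. Fits with a library left out rest on 1 library in a group, assumed to vary like the others, and the other causes were not tested. With the replicate number as a block, 1 gene passed and 978 and 776 were higher and lower at an unadjusted p under 0.05, and no call on the 9 genes changed. Same-numbered libraries deviated together with a correlation of 0.0651, so the number was not taken as a pairing.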

Other observations

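Further genes related to the 9 stood highest in Cont-IMQ replicate 2 and lowest in Cont-IMQ replicate 1, and were singled out after their values were seen. *Tchhl1*, a relative of trichohyalin, had 0.105 FPKM in Cont-IMQ replicate 1 and 12.6 FPKM in replicate 2, against 0.979 and 1.56 FPKM in the 7KC-IMQ group. *Tgm6*, a transglutaminase, had 0.164 and 2.80 FPKM against 0.768 and 0.657 FPKM. *Padi3*, the deiminase that modifies trichohyalin, had 0.883 and 13.2 FPKM against 3.15 and 3.01 FPKM. *Dlx3*, a homeobox gene of hair and epidermis listed among the regulators, had 17.4 and 44.9 FPKM against 26.7 and 24.3 FPKM. In all 4, the 7KC-IMQ libraries lay between the Cont-IMQ libraries.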
